A study of Mus musculus with 6 samples.

Results

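The 10 genes described here encode the TGF-beta ligands Tgfb1, Tgfb2 and Tgfb3, the latent TGF-beta binding proteins Ltbp1, Ltbp2 and Ltbp3, the receptors Tgfbr1, Tgfbr2 and Tgfbr3, and Tgfbi, a secreted matrix protein named for its induction by TGF-beta. They were chosen by symbol, from the array probe sets that the platform annotation ties to exactly 1 gene. All 10 of the 18193 genes measured were found, through 27 of 45101 probe sets. The cells were myoblasts, the dividing precursors of skeletal muscle, prepared from the hindlimbs of C57BL/6JRj males aged 9 to 15 weeks. They were grown for 72 hours on dishes coated with collagen I (3 samples) or with fibronectin (3 samples). Both groups shared a Ham's F-10 medium with 20% fetal bovine serum and 2.5 ng/ml basic fibroblast growth factor. No label says whether samples came from separate animals, pools or cultures, so the p-values measure no more than how these samples varied, and that variation may be technical. Their total RNA was hybridised to Affymetrix mouse arrays to learn what the coating did to expression.

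TGF-beta is made as a precursor whose cleaved propeptide stays wrapped around the growth factor and keeps it inactive. A latent TGF-beta binding protein ties this small latent complex to fibronectin and fibrillin fibres in the matrix, and integrins, proteases or thrombospondin release the active ligand. The active ligand binds Tgfbr2, the type II receptor kinase, which recruits and activates the type I kinase Tgfbr1, while Tgfbr3 (betaglycan) presents ligand without a kinase of its own. The activated complex phosphorylates Smad2 and Smad3, which join Smad4 and enter the nucleus. In myoblasts TGF-beta is known for restraining differentiation and fusion.

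On fibronectin all 3 ligands and Ltbp3 had lower signals than on collagen I, and Ltbp1 had a higher one. Tgfb1 fell 3.23-fold, Ltbp3 by 0.58 on the log2 scale, Tgfb3 1.38-fold and Tgfb2 1.28-fold, and Ltbp1 rose 1.28-fold. The signalling receptors Tgfbr1 and Tgfbr2 did not pass the test. Ltbp2, Tgfbr3 and Tgfbi lay below the brightness filter and were not tested. In bulk samples, fewer cells that make a transcript and less of it per cell cannot be told apart.

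Values are log2 probe set signals, so a difference of 1 is a doubling, and errors are SD over 3 samples. Each gene was read from its brightest probe set and tested with limma if its mean over the 6 samples reached 2.32, the median of all probe sets other than controls. Of the 10 genes 7 reached that filter, and 5 of them passed an adjusted p of 0.05, 1 higher and 4 lower on fibronectin. Over all 10950 genes tested the same rule called 40.0%, 19.9% higher and 20.2% lower, so a call alone did not set a gene apart in these samples. The samples of the 2 coatings did not overlap for these 5 genes, and that was also so for 53.3% of all genes tested. With each sample centred on its median 64.3% of the called genes were higher, in place of 49.6%, while the calls and directions of the 5 genes stayed as given.

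**Figure D1:**
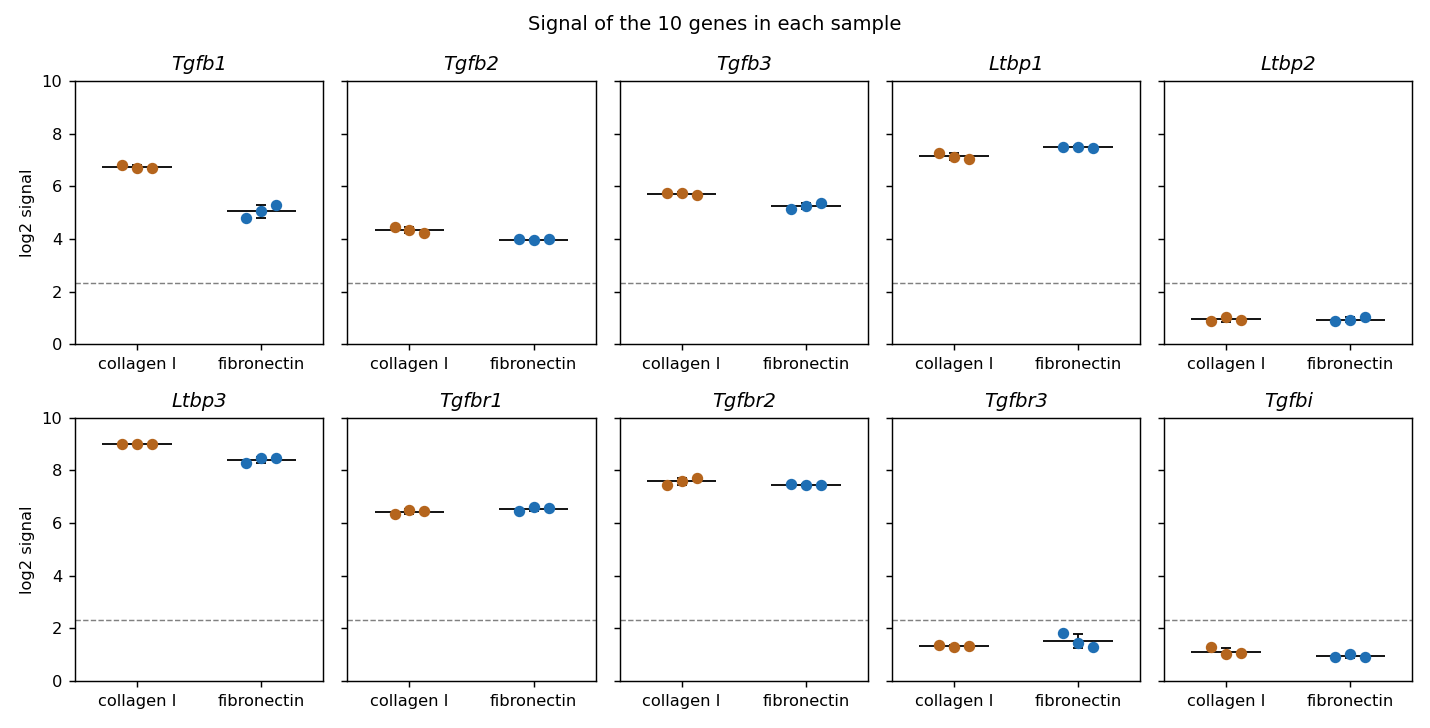
Log2 signal of the brightest probe set of each of the 10 genes (vertical axis) in the 3 collagen I and 3 fibronectin samples. Points are samples, horizontal lines means, error bars SD, and the dashed line the brightness filter at 2.32; Tgfb1 falls from between 6.68 and 6.82 to between 4.78 and 5.28, and Ltbp2, Tgfbr3 and Tgfbi lie under the filter in every sample.

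Tgfb1 (Entrez gene 21803) encodes the ligand most often studied in muscle repair and fibrosis. Its signals were 6.82, 6.68 and 6.71 on collagen I and 4.78, 5.08 and 5.28 on fibronectin. Every fibronectin sample lay more than 1 log2 unit below every collagen sample. The mean went from 6.74 ± 0.07 to 5.04 ± 0.25 (SD, n = 3), a log2 change of -1.69 with SE 0.11. The fold had a 95% confidence interval of 2.69 to 3.89, and limma's adjusted p was 5.13e-05. The change ranked 10 among the falls of all 10950 genes tested, and 13 by size in either direction. A fall of at least 1.5-fold that passed the test was seen in 3.67% of genes, and Tgfb1 was the 1 of these 7 genes that met it.

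The fall of Tgfb1 rested on 1 of its 2 probe sets. The dimmer probe set, built on another transcript sequence, stood at 2.35, 2.45 and 2.47 on collagen I and at 2.50, 2.20 and 2.07 on fibronectin. Those samples overlapped, and the log2 change of -0.17 (95% confidence interval -0.43 to 0.09) did not pass. Its signals lay around the brightness filter. Averaging both probe sets gave Tgfb1 a log2 change of -0.93, which still passed.

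Tgfb3 (Entrez gene 21809), a ligand with a part in palate fusion and wound repair, had 1 probe set. It read 5.76, 5.74 and 5.65 on collagen I and 5.13, 5.26 and 5.37 on fibronectin, with no overlap. The means were 5.72 ± 0.06 and 5.25 ± 0.12 (log2 change -0.46, SE 0.07, limma adjusted p = 0.00143). Tgfb2 (Entrez gene 21808), a ligand needed for heart and skeletal development, read 4.45, 4.35 and 4.21 on collagen I and 3.98, 3.96 and 3.99 on fibronectin. These groups did not overlap either, and the fibronectin samples were the tighter ones (SD 0.02 against 0.12). The log2 change was -0.36 (SE 0.06, limma adjusted p = 0.00332). The next 2 probe sets of Tgfb2 had changes of -0.21 and -0.21 and did not pass in the fit across all probe sets, and the dimmest had 0.11. The average over its 4 probe sets passed at -0.17.

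Read from their brightest probe sets, the ligands had unequal changes. The difference between Tgfb1 and Tgfb3 within a sample was 1.06, 0.94 and 1.05 on collagen I and -0.35, -0.19 and -0.10 on fibronectin, a shift of -1.23. The difference between Tgfb1 and Tgfb2 was 2.37, 2.33 and 2.50 on collagen I and 0.80, 1.12 and 1.28 on fibronectin, a shift of -1.33. Levels of different probe sets cannot be compared with each other, so only the shifts are read, and they hold for these probe sets. In both cases the 2 coatings did not overlap. The two-sided exact permutation test gave p = 0.1 for each, the smallest value that 3 samples against 3 allow, and 0.1 after Benjamini-Hochberg adjustment over the 4 pairs compared. The nearest Tgfb1 samples of the 2 coatings read 6.68 and 5.28. All signals of Tgfb3 (5.13 to 5.76) and of Tgfb2 (3.96 to 4.45) spanned less than that gap. Both differences therefore had to separate the coatings, and these p-values add nothing to the results of the single genes. With all probe sets of a gene averaged the shifts were -0.47 for Tgfb1 against Tgfb3 and -0.76 for Tgfb1 against Tgfb2. The dimmer probe set of Tgfb1, at -0.17, fell less than the brightest ones of Tgfb3 (-0.46) and Tgfb2 (-0.36), so the order rests on the brighter one.

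Ltbp1 (Entrez gene 268977) and Ltbp3 (Entrez gene 16998) encode secreted glycoproteins that bind the same small latent complexes, and they moved in opposite directions. Ltbp1 read 7.28, 7.10 and 7.04 on collagen I and 7.51, 7.51 and 7.46 on fibronectin. All fibronectin samples were above all collagen samples, and the spread was wider on collagen I (SD 0.12) than on fibronectin (SD 0.03). The log2 change was 0.35 (SE 0.07, limma adjusted p = 0.00422). Ltbp3 read 8.98, 8.99 and 9.00 on collagen I (SD 0.01) and 8.28, 8.47 and 8.48 on fibronectin (SD 0.11), with no overlap. Its log2 change was -0.58 (SE 0.06, limma adjusted p = 0.000321), which ranked 406 among the falls.

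Every probe set of these 2 genes passed. The 3 probe sets of Ltbp1 had log2 changes of 0.35, 0.53 and 0.40, and all 3 passed in the fit across all probe sets, with adjusted p between 0.00864 and 0.029. The 4 probe sets of Ltbp3 had changes of -0.58, -0.53, -0.66 and -0.51, and all 4 passed, with adjusted p between 0.0037 and 0.023. Among all probe sets at or above the filter 18.3% passed in that fit. The coatings did not overlap in any of these 7 probe sets, which was also so for 53.3% of all genes tested. That share was not computed over probe sets. Of the Ltbp3 probe sets, those with changes of -0.53 and -0.51 are of types that can also bind related transcripts, and the brightest is not. Probe sets of 1 gene read the same RNA and are not replicates of the coating. The difference Ltbp1 minus Ltbp3 was -1.71, -1.89 and -1.96 on collagen I and -0.77, -0.95 and -1.02 on fibronectin, a shift of 0.94 in favour of Ltbp1 (two-sided exact permutation p = 0.1, the smallest possible). Since Ltbp1 was higher and Ltbp3 lower in every fibronectin sample, this difference had to separate the coatings. Its p-value therefore adds nothing to the results of the single genes.

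Ltbp2 (Entrez gene 16997), a relative that binds fibrillin but not latent TGF-beta, had 1 probe set with signals between 0.87 and 1.03 in the 6 samples. That is far below the filter, and the coatings overlapped. Ltbp4, the remaining member of the family and not one of the 10 genes, had means of 3.57 ± 0.05 and 3.47 ± 0.14 and did not pass (log2 change -0.09, limma adjusted p = 0.34).

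**Figure D2:**
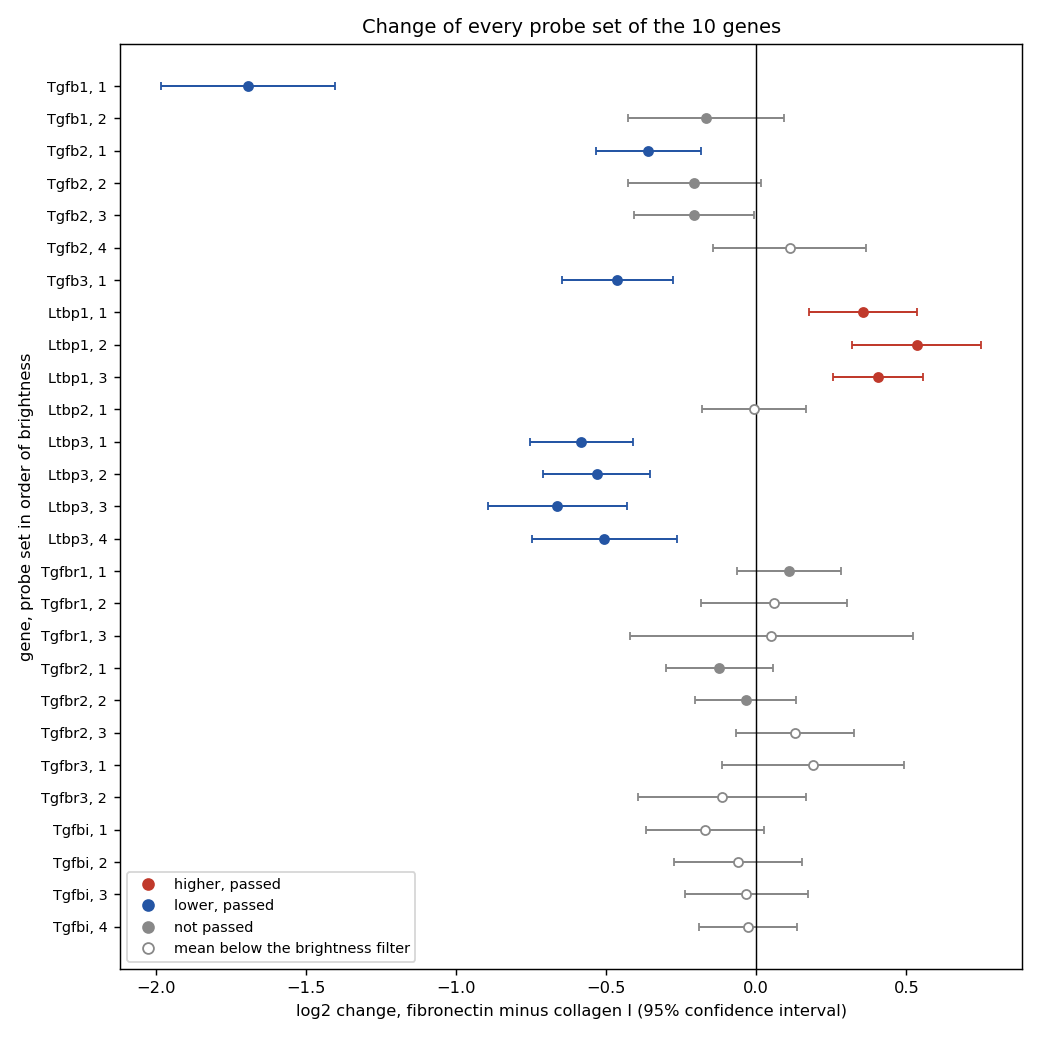
Log2 change, fibronectin minus collagen I, with its 95% confidence interval (horizontal axis) for each of the 27 probe sets, numbered within a gene from brightest to dimmest; open points have a mean below the brightness filter. The 3 probe sets of Ltbp1 lie to the right of 0 and the 4 of Ltbp3 to the left, while Tgfb1 has 1 probe set at -1.69 and 1 at -0.17.

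Of the 27 probe sets 16 had a mean at or above the filter. Fitted together with all 45037 probe sets other than controls, 3 of these 16 were higher, 7 were lower and 6 did not pass, against a background of 18.3% called among all probe sets at or above the filter. The remaining 11 lay below it, with values between 0.28 and 1.90, and 0 of them passed with limma, where 2.05% of all probe sets below the filter did. None of the 11 had an unadjusted p under 0.05.

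RefSeq promoter windows show how different the starts of these genes are. The table of assembly GRCm38.p6 held 8 of the 10 genes (not Tgfb3 or Tgfbr3), with 2 starts each for Ltbp1 and Tgfbr1. The windows of the strongest fall, of the latency gene that fell and of the one that rose are printed here as the 250 bases before the start, 5′ to 3′ on the strand of the gene. Capitals mark matches, on either strand, to CAGAC, the short box that Smad proteins bind, and to GGGCGG, the GC box of Sp1. No match to one overlapped a match to the other.
Tgfb1 (chr7:25686752-25687001, + strand): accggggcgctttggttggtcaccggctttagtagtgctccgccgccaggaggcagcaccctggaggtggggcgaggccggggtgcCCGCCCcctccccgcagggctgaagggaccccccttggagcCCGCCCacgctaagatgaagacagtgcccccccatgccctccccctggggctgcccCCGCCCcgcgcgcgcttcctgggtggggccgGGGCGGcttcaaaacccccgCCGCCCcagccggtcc
Ltbp3 (chr19:5740650-5740899, + strand): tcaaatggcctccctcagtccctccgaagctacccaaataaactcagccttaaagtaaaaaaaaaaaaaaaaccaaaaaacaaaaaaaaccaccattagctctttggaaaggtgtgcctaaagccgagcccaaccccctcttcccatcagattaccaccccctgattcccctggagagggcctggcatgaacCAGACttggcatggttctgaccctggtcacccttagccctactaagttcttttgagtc
Ltbp1, upstream start (chr17:75005279-75005528, + strand): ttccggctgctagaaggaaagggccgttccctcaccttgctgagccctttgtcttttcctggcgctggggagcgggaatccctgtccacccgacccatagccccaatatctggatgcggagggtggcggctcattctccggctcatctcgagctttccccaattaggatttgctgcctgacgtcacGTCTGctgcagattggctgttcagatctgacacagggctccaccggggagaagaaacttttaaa

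The Tgfb1 window was 75.2% G or C, with 5 matches to the GC box and 0 to the Smad box. The Ltbp3 window was 47.2% G or C, with 1 Smad box that begins 58 bases before the start and 0 GC boxes. The upstream window of Ltbp1 was 56.8% G or C, with 1 Smad box 64 bases before the start, and its downstream window, at chr17:75178531-75178780, had 2. That upstream window ends past the annotated gene start, chr17:75005480, so its start is a later one and its last bases lie within the gene. Among all 32851 windows of this length 42.2% held the Smad box and 32.7% the GC box, and the median G or C content was 52.4%. Of the 10 windows of these genes 8 held the Smad box, and that of Tgfb1 did not. The windows of Tgfb2 and Ltbp2 and the downstream ones of Ltbp1 and Tgfbr1 also lie partly or wholly within the annotated gene. The AP-1 motif TGANTCA, in 6.75% of all windows, was in 0 of the 10. No test of these counts was run. Such matches describe the letters of a window and were not tested for binding, and which start of Ltbp1 the probe sets read was not tested.

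Tgfbr1 (Entrez gene 21812), the type I receptor kinase, read 6.33, 6.51 and 6.46 on collagen I and 6.46, 6.60 and 6.57 on fibronectin. The coatings overlapped, and the log2 change was 0.11 (95% confidence interval -0.04 to 0.26, limma adjusted p = 0.202). Tgfbr2 (Entrez gene 21813), the type II receptor kinase, read 7.45, 7.60 and 7.70 on collagen I and 7.47, 7.43 and 7.46 on fibronectin. Collagen replicate 1 lay among the fibronectin samples, and the change was -0.12 (95% confidence interval -0.27 to 0.03, limma adjusted p = 0.167). Without that sample the change was -0.19 and passed, at a limma adjusted p of 0.0251.

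The intervals limit how far either receptor could have moved on this array. Both exclude a change of the size seen for Tgfb1, Tgfb3 or Ltbp3. Within a sample the difference Tgfbr1 minus Tgfbr2 was -1.12, -1.09 and -1.23 on collagen I and -1.01, -0.83 and -0.89 on fibronectin. Here the 2 coatings did not overlap although each receptor alone did, with a shift of 0.23 (two-sided exact permutation p = 0.1, the smallest possible). The nearest samples stood at -1.09 and -1.01. How often other gene pairs separate in this way was not computed, and 53.3% of all single genes tested did so. The shift was 0.08 (exact permutation p = 0.3) with all probe sets averaged, a mean that includes dim probe sets of both genes.

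**Figure D3:**
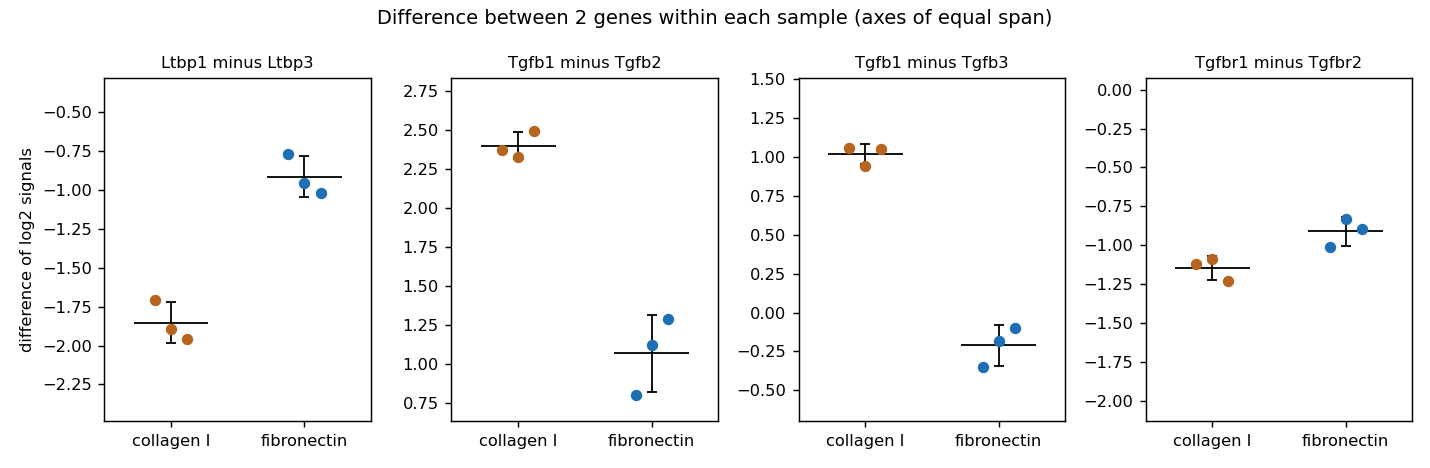
Difference of log2 signals between 2 genes within each sample (vertical axes of equal span, not starting at 0) on collagen I and fibronectin, with means and SD. In all 4 pairs the 3 fibronectin samples lie clear of the 3 collagen samples, by the most for Tgfb1 against Tgfb2 and the least for Tgfbr1 against Tgfbr2.

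Tgfbr3 (Entrez gene 21814) had 2 probe sets, the brighter at 1.37, 1.30 and 1.31 on collagen I and 1.82, 1.44 and 1.30 on fibronectin. Tgfbi (Entrez gene 21810) had 4, the brightest at 1.27, 1.02 and 1.05 on collagen I and 0.92, 1.01 and 0.90 on fibronectin. Neither gene reached the filter in any sample, and without the filter neither passed, nor did Ltbp2.

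**Figure D4:**
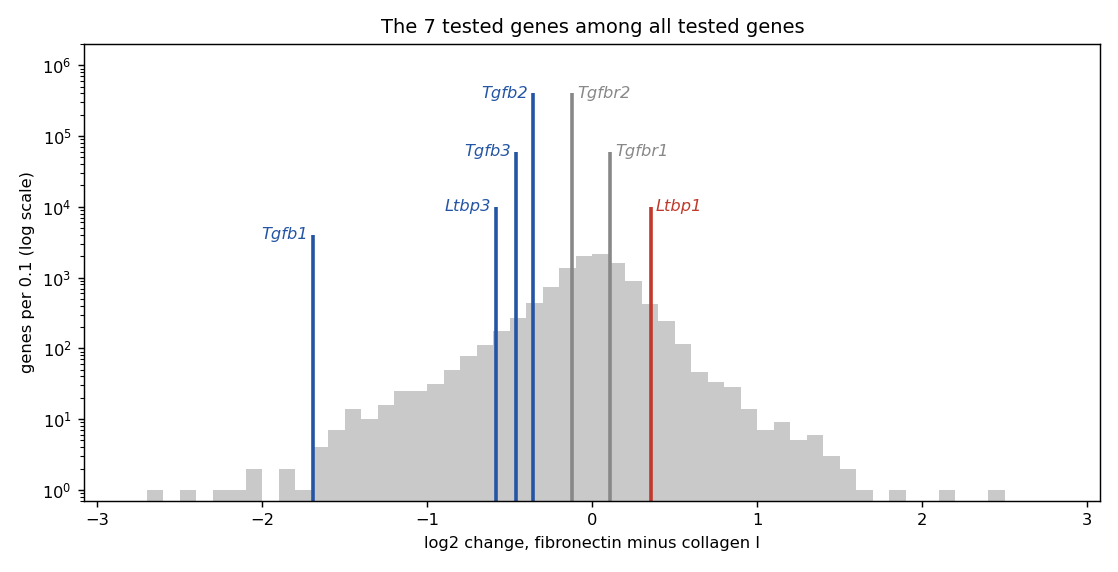
Number of tested genes in each step of 0.1 of the log2 change, fibronectin minus collagen I (grey, vertical axis logarithmic), with lines at the 7 tested genes (blue lower, red higher, grey not passed). Tgfb1 at -1.69 lies in the far left tail, and the others lie between -0.58 and 0.35, with Ltbp3 the farthest out among them.

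The genes that store and release latent TGF-beta moved both ways. In a list of 26 such genes 24 were measured and 14 tested. Of these 3 rose, 4 fell and 7 did not pass, beside 40.0% of all tested genes that passed in either direction. The median log2 change was -0.05, beside 0.00 over all genes tested. Thbs1, thrombospondin 1, an activator of latent TGF-beta, rose from 3.90 ± 0.30 to 5.28 ± 0.22, or 2.61-fold (limma adjusted p = 0.000453). The plasminogen activators Plat and Plau, which act upstream of plasmin, rose by log2 changes of 0.40 and 0.23, the change of Plat being 0.14 with its probe sets averaged. Emilin1, a matrix protein that binds the TGF-beta precursor and hinders its processing, fell 1.86-fold from 5.44 ± 0.06 to 4.54 ± 0.18 (limma adjusted p = 0.000215). Bgn, biglycan, a proteoglycan that binds TGF-beta, fell 1.81-fold from 6.61 ± 0.06 to 5.75 ± 0.14 (limma adjusted p = 0.000126).

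Mmp14, a membrane protease, and Itgb5, the beta chain of an integrin that can activate latent TGF-beta, fell by 0.30 and 0.28 on the log2 scale. Plau did not pass without collagen replicate 3, fibronectin replicate 1 or fibronectin replicate 2, at changes of at least 0.16, Itgb5 did not pass without fibronectin replicate 3, and neither passed without the brightness filter. Integrins Itgb3, Itgb6 and Itgb8, which pair with Itgav to activate TGF-beta, lay below the filter.

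Inside the cell, Smad2 and Smad3, which carry the signal, rose, and the inhibitory Smad6 and Smad7 fell. Smad3 rose from 6.42 ± 0.08 to 6.69 ± 0.08 (log2 change 0.27, limma adjusted p = 0.00949), although not with its probe sets averaged (0.11). Smad2 rose by 0.16 (limma adjusted p = 0.0476) and lost that call in 8 of the 15 alternatives that tested it, with changes down to 0.09, among them leaving out any single sample but collagen replicate 1. Smad4, the shared partner, had a change of 0.07 and did not pass; averaging its probe sets gave -0.07. Smad6 fell 1.64-fold from 6.83 ± 0.10 to 6.12 ± 0.09 (limma adjusted p = 0.000197), and which Smads that fall affects was not tested. Smad7, which TGF-beta itself induces as feedback, named after its value was seen, fell by 0.41 (limma adjusted p = 0.00687).

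Of 26 genes listed as receptor partners and signalling components 24 were tested. Among them 4 rose, 5 fell and 15 did not pass, where 40.0% of all tested genes passed in either direction. The median was 0.01. Dab2, an adaptor that links receptors to Smads and to endocytosis, fell 1.66-fold (limma adjusted p = 7.71e-05). Pmepa1, which TGF-beta induces and which sequesters Smad2 and Smad3, fell 1.62-fold from 7.85 ± 0.11 to 7.15 ± 0.15, and Skil, a repressor of Smads, fell by 0.30 on the log2 scale. Tgif2, a corepressor, rose 1.43-fold, and Zfyve9, which anchors Smads at endosomes, rose by 0.24.

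Genes that TGF-beta commonly raises did not move as 1 group. Of 32 listed 31 were measured and 23 tested, of which 7 rose, 11 fell and 5 did not pass. Over all genes tested 40.0% passed, 19.9% higher and 20.2% lower. Thbs1, Pmepa1, Skil and Smad7 are also in the lists above. The median was -0.08, and 0.03 without collagen replicate 1. The cytokine Il11 fell 1.76-fold, the sphingosine kinase Sphk1 1.77-fold, and the transcription factor Bhlhe40 1.51-fold, with limma adjusted p between 0.000837 and 0.00112. In the other direction, the actin-binding protein Tagln rose 1.83-fold from 4.16 ± 0.15 to 5.03 ± 0.30 (limma adjusted p = 0.00225). The matrix protein Sparc rose 1.40-fold from 9.94 ± 0.04 to 10.42 ± 0.02 (log2 change 0.48, and 0.29 as the mean of its probe sets), and the transcription factor Snai2 rose by 0.23, a call lost without collagen replicate 2 or fibronectin replicate 2 (changes of at least 0.20). Ccn2, Col1a1, Col1a2 and Postn, which belong to this list, lay below the filter, as Tgfbi did.

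Of 14 listed genes of the related activin and myostatin arm 7 were tested, and 1 rose, 1 fell and 5 did not pass, beside 40.0% of all tested genes that passed in either direction. Acvr2b, a type II receptor for myostatin and activin, had a change of 0.22 (limma adjusted p = 0.0227), and Inha, the alpha chain of inhibin, -0.31 (limma adjusted p = 0.0258). Neither call held throughout: Acvr2b passed in 7 of 13 alternatives, with changes between 0.19 and 0.27, and not without collagen replicate 2 or 3 or fibronectin replicate 1 or 3. Inha passed in 10 of 14, with changes between -0.37 and -0.21, and not without collagen replicate 1 or 3.

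**Figure D5:**
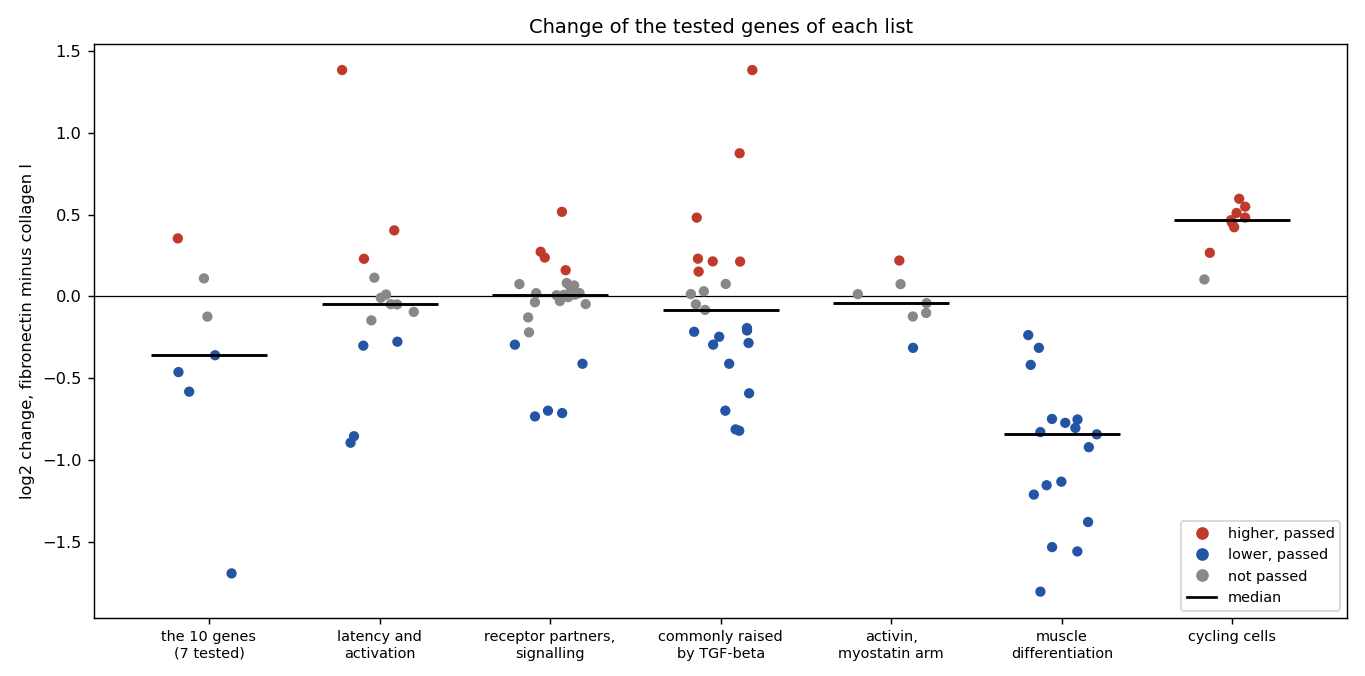
Log2 change, fibronectin minus collagen I, of each tested gene (points; red higher, blue lower, grey not passed) in the lists described, with the median as a black line. The lists of TGF-beta genes spread to both sides of 0, while all 17 tested muscle differentiation genes lie below 0 and all 9 tested genes of cycling cells above it.

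The state of the cells differed between coatings as well. Of 18 listed muscle differentiation genes 17 were tested and all 17 fell (median log2 change -0.84), and of 9 tested genes of cycling cells 8 rose (median 0.47). Among all tested genes 20.2% were called lower and 19.9% higher. The part of these shifts in the changes of the TGF-beta genes was not tested. All 7 listed myoblast markers were bright enough to test; 2 rose, 1 fell and 4 did not pass. The adhesion molecules Vcam1 and Cdh15 rose by log2 changes of 0.31 and 0.24, and Des, desmin, a muscle filament protein, had -0.23, a call that held in 10 of 15 alternatives and not without collagen replicate 3 or fibronectin replicate 1 or 3. The transcription factors Pax7, Myod1 and Myf5 stayed short of the threshold, at -0.13 for Pax7, -0.06 for Myod1 and 0.08 for Myf5. The summed linear signal of the list was 2687 to 2816 on collagen I and 2730 to 2848 on fibronectin.

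Markers of other cells of muscle were mostly dim. For macrophages, which make Tgfb1, the summed linear signal of 8 markers was 57.9 to 65.8 on collagen I and 40.7 to 46.7 on fibronectin. Of these 8 markers 3 were tested. Cd68 fell 2.42-fold, which made up most of the drop in the sum. Cd14 fell 1.37-fold, and Csf1r did not pass. The defining macrophage genes Ptprc, Adgre1 and Itgam were under the filter whatever the coating, none with a mean above 1.26. For smooth muscle cells and pericytes the sum of 6 markers was 554 to 602 on collagen I and 221 to 309 on fibronectin, most of it from Rgs5. Of these 6 markers 3 were tested: Rgs5 fell 2.36-fold, while Cspg4 (log2 change -0.35) and Notch3 (0.12) did not pass. Myh11, Kcnj8 and Abcc9 lay below the filter.

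Fibroblast markers summed to 20.2 to 21.9 on collagen I and 22.7 to 25.9 on fibronectin over 7 genes, of which 5, including Pdgfra, lay below the filter, Cd34 rose and Thy1 fell, the latter call held in 4 of 14 alternatives. Endothelial markers summed to 20.8 to 24.2 and 24.0 to 24.7, with 5 of 6 below the filter, Pecam1 and Cdh5 among them. Schwann cell markers summed to 11.3 to 12.2 and 11.7 to 12.4 over 2 measured genes, and adipocyte markers to 4.17 to 5.08 and 4.18 to 4.62 over 3, all below the filter. The part of the macrophage and pericyte genes in the fall of Tgfb1 was not tested.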

How the data were processed

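The authors deposited log2 probe set signals for 6 samples. Per the submitters' processing notes they used Affymetrix Expression Console with RMA, a method that subtracts background, equalises arrays by quantiles and sums probes into probe sets. The sources used here give neither versions nor settings. Normalisation across arrays removes a change shared by most genes, and signals near the floor compress changes. No scan date or batch was given, so batches were not tested. The array gives no molecule counts, so the 3 samples per coating limit the precision.

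Groups came from the sample titles. Genes were named from the platform annotation, updated by Entrez identifier through RefSeq of assembly GRCm38.p6 (34741 of 34945 probe sets with 1 gene matched). A further 932 probe sets had several genes and 9160 none. Genome coordinates of probe sets are not given. The main test was limma 3.58.1 in R 4.3.3 (lmFit and eBayes, two-sided, no covariates, 4 residual and 3.81 prior degrees of freedom), adjusted by Benjamini-Hochberg over the 10950 genes that reached the filter; 7243 did not. A second fit took all probe sets. On data simulated for this comparison with 10950 genes, 200 of them were changed. Of 1.25-fold changes 52% were found, and 96%, 98% and 100% of 1.5-fold, 2-fold and 3-fold ones, with 3 false calls among 176. In the real data 40.0% of genes were called, and the simulated noise was independent between genes, so these rates need not hold there. Figures used matplotlib 3.10.9.

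The 10 genes and the lists were chosen with earlier results of these data known. Besides the 10 genes, the text names up to 4 genes past the threshold in each direction per list by smallest p, with Ltbp4, Smad2, Smad3 and Smad4 whatever their values; dim genes, markers and Smad7 named beside them were picked after their values were seen. Alternatives were other filters, normalisation, probe set rules, variance models, array weights, a block for the replicate number, and leaving out each sample.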

Additional observations from a re-analysis of the deposited data

How the results depend on the processing

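Over the 16 alternatives Tgfb1, Tgfb3, Ltbp1 and Ltbp3 kept their direction and passed, and so did Tgfb2 in the 15 that tested it, since the 75th percentile filter left it out. Apart from the mean of all probe sets, these alternatives read the brightest probe set of each of the 5 genes. They therefore do not test the dimmer probe sets of Tgfb1 and Tgfb2, which did not pass. Log2 changes lay between -1.81 and -0.93 for Tgfb1, -0.42 and -0.17 for Tgfb2, -0.52 and -0.40 for Tgfb3, 0.31 and 0.43 for Ltbp1, and -0.62 and -0.52 for Ltbp3. Adjusted p of the 5 genes lay between 3.19e-08 and 0.03. Tgfbr1 passed in 0 of 16 and Tgfbr2 in 1, without collagen replicate 1. Asking for a change of at least 1.5-fold too, a setting chosen after seeing the data, left 1 of the 10 genes, Tgfb1, and 573 of all genes, 171 higher and 402 lower; Ltbp3 missed that size at a log2 change of -0.58.

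Without 1 sample at a time 5 to 6 of the genes and 3439 to 4140 of all genes passed. The shifts between paired genes then lay at 0.86 to 1.01 for Ltbp1 minus Ltbp3, -1.44 to -1.20 for Tgfb1 minus Tgfb2, -1.29 to -1.16 for Tgfb1 minus Tgfb3 and 0.19 to 0.28 for Tgfbr1 minus Tgfbr2. No label says whether samples with the same replicate number belong together. Their deviations from the group means correlated at 0.10, -0.01 and 0.08, and those of different numbers at -0.14 to 0.10. Not every sample was closest to its own number. With 3 samples per coating these values cannot settle whether samples were paired. With the replicate number as a block 4177 genes passed in place of 4383, and the same number of the 10 genes, 5. List medians close to 0 changed sign: that of latency and activation genes was 0.01 and that of the activin and myostatin arm 0.01 with samples centred. The number of arrays and signals near the floor, where 3 of the genes lay, limit what could be detected.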

Other observations

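Fibronectin replicate 1 was the sample with the lowest signal of Tgfb1 (4.78), Tgfb3 (5.13) and all 4 probe sets of Ltbp3, a pattern noticed after the values were seen. The same sample had the lowest Bgn (5.62 against 5.74 and 5.89 in the other fibronectin samples), Emilin1 (4.34 against 4.66 and 4.63), Il11 (4.02 against 4.22 and 4.32), Cd68 (3.12 against 3.64 and 3.31) and Rgs5 (7.47 against 8.01 and 8.03). It had the highest Thbs1 (5.52 against 5.09 and 5.23) and Tagln (5.38 against 4.88 and 4.84). These genes were picked for their place in that sample. For other genes it was not at the far end: it lay between the other fibronectin samples for Tgfb2 (3.98 against 3.96 and 3.99), Ltbp1 (7.51 against 7.51 and 7.46) and Pmepa1 (7.16 against 6.99 and 7.30). With 3 samples in the group no test of this sample was run.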
